A study of Mus musculus with 13 samples.

Results

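The AP-1 transcription factor genes and a pair of small Maf genes were followed in mouse glomeruli during experimental membranous nephropathy (MN). The set was chosen by gene symbol and holds 10 of the 35967 gene symbols with deposited values: *Fos*, *Fosb*, *Fosl1* and *Fosl2*, *Jun*, *Junb* and *Jund*, *Atf3*, and *Maff* and *Mafk*. All samples were glomeruli of wild-type Balb/c mice, 1 mouse per library, and the MN experiments of the study used male mice. Control mice (n = 5) received 2 mg of preimmune rabbit IgG, and MN mice received 2 mg of rabbit IgG against THSD7A, a podocyte surface protein and MN autoantigen, and were examined on day 1 (n = 4) or day 5 (n = 4) after injection. Control mice of both days form 1 group, in which single mice carry no day, and both MN groups were compared with the same control libraries. The model rests on a transferred antibody of another species, not on an autoimmune response of the mouse. The labels give no ages. The study's methods give 14 to 15 weeks for its MN experiments, in a sentence that names knockout lines and their littermates. Values are TPM, a transcript abundance that is scaled for transcript length and rescaled to a shared total in each library, so that levels of different genes can be set side by side but the depth behind them is unknown.

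AP-1 is a dimer of basic leucine zipper proteins. Jun proteins pair with each other or with Fos proteins, whereas Fos proteins need a Jun partner to bind DNA, and ATF3 is a stress-induced relative that pairs with Jun proteins. Many of these genes are immediate-early genes: MAP kinase signalling switches them on within minutes, without new protein synthesis, and their transcripts decay quickly. The small Maf proteins MAFF, MAFG and MAFK have a leucine zipper but no transactivation domain, so that they act as repressors when paired with each other and as activators when paired with CNC proteins such as NRF2. In podocytes and other kidney cells, AP-1 genes are known to respond to injury, stretch and growth factors, and also to the handling of tissue. The methods describe glomerular isolation on magnetic beads after warm enzymatic digestion, with mechanical dissociation as an alternative for co-immunoprecipitation, and name no variant for the RNA samples.

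In MN glomeruli, *Maff* was higher than in control glomeruli on both days, *Fosb* was higher on day 1 and *Junb* was higher on day 5. The promoters of these genes are shown because their transcripts were the members called. Sequences come from RefSeq (GRCm38.p6), which had entries for 9 of the 10 members, and each window was placed in GRCm39 by its single exact match. Each run is the 250 bases before a transcription start, 5′ to 3′ on the strand of the gene, with matches to the searched motifs in capitals.
Maff, chr15:79231470-79231719, plus strand: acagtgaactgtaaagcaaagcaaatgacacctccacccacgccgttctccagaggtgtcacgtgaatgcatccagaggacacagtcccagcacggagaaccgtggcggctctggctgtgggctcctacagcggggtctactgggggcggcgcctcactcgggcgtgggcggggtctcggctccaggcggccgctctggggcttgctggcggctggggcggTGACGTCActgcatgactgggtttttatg
Fosb, chr7:19043971-19044220, minus strand: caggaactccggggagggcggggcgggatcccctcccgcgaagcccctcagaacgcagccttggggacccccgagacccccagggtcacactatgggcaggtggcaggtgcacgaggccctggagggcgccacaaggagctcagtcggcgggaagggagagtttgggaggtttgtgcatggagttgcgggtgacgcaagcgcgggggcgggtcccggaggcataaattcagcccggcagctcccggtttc
Junb, chr8:85705378-85705627, minus strand: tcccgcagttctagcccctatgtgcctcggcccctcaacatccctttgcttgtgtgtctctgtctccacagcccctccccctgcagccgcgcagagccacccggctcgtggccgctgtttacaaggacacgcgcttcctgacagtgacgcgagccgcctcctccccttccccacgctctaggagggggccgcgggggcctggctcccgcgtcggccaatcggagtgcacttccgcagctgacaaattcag
The capitals in the *Maff* window mark TGACGTCA, the cyclic AMP response element, at positions -29 to -22 from the start. Motifs were read on both strands of these 250 bases in 32851 RefSeq promoter windows. TGACGTCA was present in 1.55% of them, the AP-1 site TGANTCA in 6.75%, the antioxidant response element core TGACNNNGC in 10.2%, the CArG box of serum response factor in 1.47% and the Maf recognition element in 0.323%. Among the 11 windows of members there were 2 further matches, both to TGACNNNGC, before another start of *Maff* (-112 to -104) and before *Mafk* (-13 to -5, on the opposite strand). The letters of these 5 motifs did not occur in the windows of *Fos*, *Fosb*, *Fosl2*, *Jun*, *Junb*, *Jund* and *Atf3*. For *Jund* the RefSeq start lies at -1210 from the start of the canonical transcript, and for *Fosl2* at 1109. The 250 bases before the canonical starts of *Jund* and *Fosl2* were therefore not searched. *Fosl1* had no entry.

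The libraries resembled each other closely, with Spearman correlations across tested genes between 0.971 and 0.988 and no pair with identical values. Summed TPM of 8 podocyte markers lay between 7470 and 10100 in control, 8240 and 10100 in day 1 and 9020 and 9700 in day 5 libraries, and mesangial and endothelial markers were present in every group. The podocyte sum hides changes of single markers, since on day 5 4 of the 8 were higher and 4 lower than in control. *Cdkn1c* was called higher (log2 fold change 0.72, adjusted p = 0.000708, limma) and *Plce1* lower (-0.6, adjusted p = 0.0106, limma). *Synpo* passed the p threshold alone (-0.46, adjusted p = 0.00197, limma). The 8 endothelial markers were all higher than in control on day 5 (median log2 fold change 0.20, 0 called, 3 at an unadjusted p under 0.05 by limma). Of these, *Emcn* passed the p threshold but not the fold threshold (log2 fold change 0.29, adjusted p = 0.0127, limma). All 4 smooth muscle markers were higher on both days, with summed TPM of 242 to 538 in control, 453 to 592 on day 1 and 526 to 797 on day 5, and *Tagln* was called on day 5 (log2 fold change 1.3, adjusted p = 0.000639, limma). The part of these cell types in the day 5 results was not tested. Markers of tubular cells were also present and were highest relative to control on day 1 (values stand with the day 1 comparison). In whole glomeruli, fewer cells of a type and less RNA per cell cannot be told apart. Differences were tested with limma on log2 of scaled TPM plus 0.5, a scale that understates the change of low genes, across the 14322 genes that reached 1 TPM in 4 or more libraries. A gene was called where the Benjamini-Hochberg adjusted p was under 0.05 and the log2 fold change exceeded 0.5 in size, the thresholds of the study. All 10 members entered the test, *Fosb* through the MN libraries, since it reached 1 TPM in only 1 of 5 control libraries but in 4 of 4 on day 1 and 3 of 4 on day 5.

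In control glomeruli, the Jun family made up most of the transcripts of these 10 genes. *Jund* was the most abundant with a mean of 315 TPM, followed by *Jun* (154 TPM), *Mafk* (62.4 TPM), *Junb* (55.6 TPM), *Fosl2* (18.6 TPM), *Fos* (16.6 TPM), *Maff* (6.27 TPM), *Atf3* (3.31 TPM), *Fosl1* (1.13 TPM) and *Fosb* (0.694 TPM). The control ranges of neighbours in this order overlapped for *Mafk* and *Junb*, *Fosl2* and *Fos*, *Maff* and *Atf3*, *Atf3* and *Fosl1*, and *Fosl1* and *Fosb*. *Jun*, *Junb* and *Jund* together held 82.7% of the summed member TPM in control, 82.4% in day 1 and 84.5% in day 5 libraries. The sum of all members was 633 ± 34.8 TPM in control (SD, n = 5), 689 ± 29.1 on day 1 (n = 4) and 666 ± 36.6 on day 5 (n = 4). The members that were called were thus 1 abundant gene, *Junb*, and 2 of the low ones, *Maff* and *Fosb*.

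**Figure D1:**
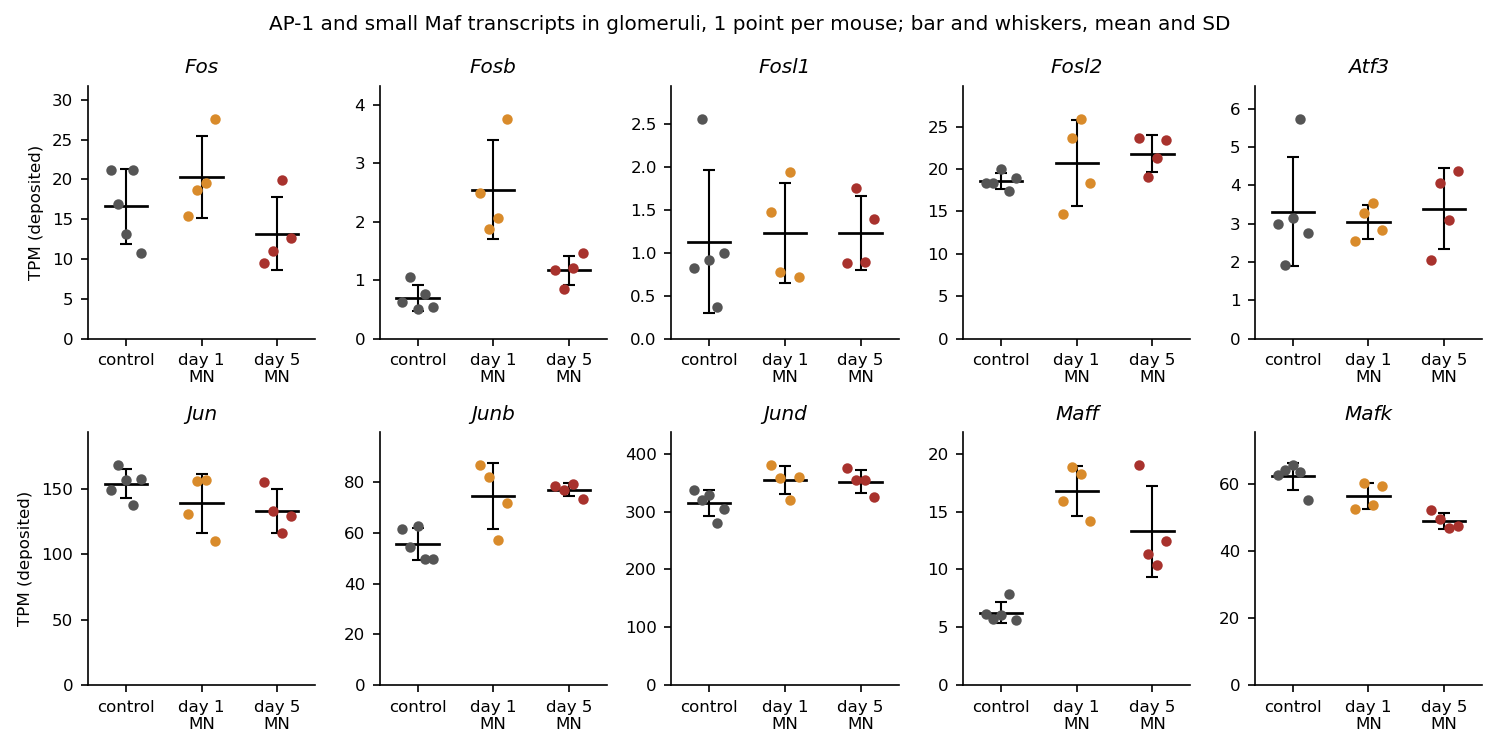
Deposited TPM (vertical axes, linear from 0, a separate scale for each gene) of the 10 members in control, day 1 MN and day 5 MN glomeruli, 1 point per mouse, with bars at the mean and whiskers at the SD. All MN points of *Maff* lie above all control points, as do the day 1 points of *Fosb* and the day 5 points of *Junb*, while the day 5 points of *Mafk* lie below all control points.

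*Maff*, which encodes a small Maf protein known to be inducible, lies on chromosome 15 of GRCm39 (79230821 to 79243276, plus strand, 3 exons). Its TPM was 6.17, 5.68, 6.07, 7.86 and 5.59 in the control libraries, 15.9, 18.9, 18.3 and 14.2 on day 1, and 19.0, 11.3, 10.4 and 12.5 on day 5. Every MN library was above every control library on both days, and day 5 replicate 1 was as high as the day 1 libraries. Mean TPM was 2.69-fold higher on day 1 and 2.12-fold higher on day 5. By limma, the log2 fold change was 1.40 on day 1 (standard error 0.17, adjusted p = 0.00832, limma) and 1.03 on day 5 (standard error 0.17, adjusted p = 0.00254, limma), and both calls held when any single library was left out. The day 5 value was 0.37 log2 units below the day 1 value, a difference that did not pass the test (95% confidence interval of day 5 minus day 1 from -0.76 to 0.02, adjusted p = 0.346). By unadjusted p, *Maff* ranked 2 of 14322 genes on day 1 and 224 on day 5.

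*Mafk*, a small Maf gene on chromosome 5 (139776804 to 139788408, plus strand, 3 exons), was far more abundant than *Maff* in control glomeruli and was lower in MN on day 5. Its TPM was 62.9, 64.2, 65.7, 63.7 and 55.5 in control, 52.6, 60.3, 53.9 and 59.5 on day 1, and 52.5, 49.6, 46.9 and 47.6 on day 5. Day 1 overlapped with control only through control replicate 5, and every day 5 library was below every control and every day 1 library. The log2 fold change was -0.09 on day 1 (adjusted p = 0.602, limma) and -0.31 on day 5 (standard error 0.07, adjusted p = 0.019, limma), so that the day 5 difference passed the p threshold, as did 6.12% of tested genes, but not the fold threshold. The adjusted p rose to 0.0501 without control replicate 3, 0.0599 without day 5 replicate 3 and 0.0602 without day 5 replicate 4.

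The estimates of the 2 genes had opposite signs, although *Mafk* overlapped with control on day 1 and was not called on either day. The composition of the small Maf pool differed between control and MN. *Maff* made up 9.13% of the summed TPM of *Maff* and *Mafk* in control (8.12% to 11.0% over 5 libraries), 22.9% on day 1 (19.3% to 25.3%, 4 libraries) and 21% on day 5 (18.1% to 26.6%, 4 libraries). The groups did not overlap between control and either MN day. This share adds little to the TPM of *Maff* itself, which was above every control in every MN library. *Mafg*, the remaining small Maf gene, was not a member but completes the pool: its mean TPM was 92.3 ± 12.0 in control (SD, n = 5), 75.5 ± 10.7 on day 1 (n = 4) and 67.8 ± 5.90 on day 5 (n = 4). It had a log2 fold change of -0.40 on day 5 with an adjusted p of 0.0373 (limma), also short of the fold threshold. With *Mafg* included, *Maff* held 3.93% of the pool in control, 11.3% on day 1 and 10.1% on day 5. The pool itself had a mean sum of 161 TPM in control (148 to 181), 149 on day 1 (134 to 165) and 130 on day 5 (122 to 140). Day 1 overlapped with control, and every day 5 library was below every control. The sum was not tested.

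Among the Fos family, *Fosb* was the only called gene. It lies on chromosome 7 (19036621 to 19043976, minus strand, 4 exons) and encodes FosB, which is also known in a truncated, long-lived form, ΔFosB, that a gene-level TPM does not separate. Its TPM was 0.621, 1.06, 0.499, 0.755 and 0.532 in control, 2.49, 1.87, 2.06 and 3.76 on day 1, and 1.17, 0.849, 1.2 and 1.46 on day 5. Day 1 libraries were all above control and above day 5, whereas day 5 overlapped with control through day 5 replicate 2, which lay below control replicate 2. The mean was 3.67-fold higher on day 1 on the TPM scale, and the log2 fold change was 1.37 (standard error 0.22, adjusted p = 0.0395, limma). This call was close to the threshold. It held without control replicate 5 (adjusted p = 0.0193) or day 1 replicate 3 (adjusted p = 0.0431) and was lost when any of the other 11 libraries was left out, with adjusted p up to 0.136 and log2 fold changes of 1.19 to 1.47. On day 5 the log2 fold change was 0.51 (standard error 0.22, adjusted p = 0.212). The study, which tested counts with DESeq2, placed *Fosb* among its genes altered on both days. *Fosb* was 0.85 log2 units lower on day 5 than on day 1 (standard error 0.23, adjusted p = 0.0789), which missed the threshold although the groups did not overlap.

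*Fos*, the prototype immediate-early gene (chromosome 12, 85520658 to 85524047, plus strand), varied widely within each group. Its TPM was 21.2, 16.9, 13.1, 21.2 and 10.8 in control, 15.4, 18.7, 19.6 and 27.6 on day 1, and 9.5, 11.0, 19.9 and 12.6 on day 5. All 3 groups overlapped, and the day 1 maximum was replicate 4, which also had the highest *Fosb*. The log2 fold change was 0.34 on day 1 (95% confidence interval -0.15 to 0.83, adjusted p = 0.563, limma) and -0.29 on day 5 (-0.78 to 0.20, adjusted p = 0.534, limma). Between the days it was -0.63 (standard error 0.24, adjusted p = 0.214).

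*Fosl2*, which encodes FRA2 and was about as abundant as *Fos*, had a narrow range of 17.4 to 20 TPM in control and spread to 14.7 to 25.9 on day 1 and 19.0 to 23.7 on day 5. Its log2 fold changes were 0.16 (adjusted p = 0.656, limma) and 0.26 (adjusted p = 0.32, limma). *Fosl1*, which encodes FRA1, stayed between 0.363 and 2.56 TPM over all libraries, with a coefficient of variation of 73.8% in control, and its 95% confidence intervals of -0.56 to 0.91 on day 1 and -0.53 to 0.94 on day 5 include changes as large as that of *Fosb* on day 5. *Ccdc85b*, whose exons overlap on the opposite strand, matches at least 50% of the *Fosl1* transcript at an identity of 90% or more, and the strandedness of the libraries is not given, so the value of *Fosl1* is uncertain. *Fosb* held 1.86% of the summed Fos family TPM in control, 5.77% on day 1 and 3.11% on day 5.

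*Atf3*, a stress-response gene on chromosome 1 (190902493 to 190950241, minus strand), did not differ detectably between groups. Its TPM was 3, 1.93, 3.15, 5.73 and 2.76 in control, 2.55, 3.27, 3.54 and 2.83 on day 1, and 2.04, 4.07, 3.10 and 4.37 on day 5. The highest value was that of a control library, replicate 4. The log2 fold change was 0.00 on day 1 (95% confidence interval -0.55 to 0.54) and 0.09 on day 5 (-0.46 to 0.63), with adjusted p of 0.997 and 0.901 (limma).

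**Figure D2:**
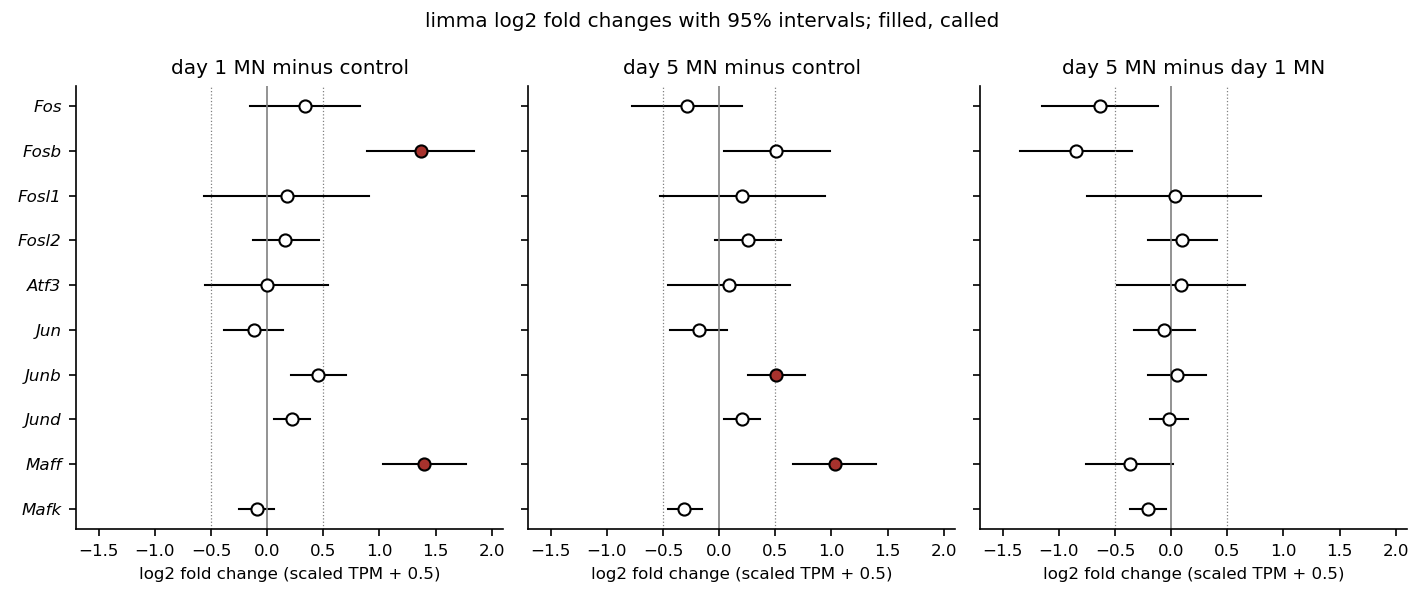
Log2 fold changes of the 10 members on day 1 and day 5 against control and between the days (horizontal axis, log2 of scaled TPM plus 0.5), with points at the limma estimate, bars at the 95% confidence interval, filled points for called genes and dotted lines at the fold threshold of 0.5. *Maff* and *Fosb* are called on day 1, and *Maff* and *Junb* on day 5, and no member is called between the days.

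*Junb* encodes a Jun protein that activates fewer AP-1 targets than c-Jun and often restrains it, and is a single-exon gene on chromosome 8 (85701113 to 85705359, minus strand). Its TPM was 61.7, 54.3, 62.6, 49.7 and 49.6 in control, 86.6, 81.9, 57.3 and 71.9 on day 1, and 78.3, 76.8, 79.4 and 73.5 on day 5. All 4 day 5 libraries were above all control libraries and within a narrow range (SD 2.58), while on day 1 replicate 3 lay inside the control range. The log2 fold change was 0.51 on day 5 (standard error 0.11, adjusted p = 0.0175, limma), just past the fold threshold, and 0.45 on day 1 (standard error 0.11, adjusted p = 0.178, limma). Both estimates were close to each other, with a difference of 0.05 (95% confidence interval -0.21 to 0.31). The day 5 call was lost without control replicate 2 (log2 fold change 0.49), control replicate 4 (0.47), control replicate 5 (0.48), day 5 replicate 1 (0.48) or day 5 replicate 2 (0.50, adjusted p = 0.057). Without day 1 replicate 3, *Junb* was also called on day 1 (log2 fold change 0.58, adjusted p = 0.0304). *Prdx2* overlaps an exon of *Junb* on the opposite strand, and its own log2 fold changes were -0.03 and 0.05 on the 2 days. Opposite-strand exons also overlap *Mafk* (of *Tmem184a*), *Jun* (of *Junos*), and *Maff*, *Jund* and *Fosl2* (of predicted genes), and without known strandedness their reads cannot be told apart.

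*Jund*, which encodes the constitutive Jun protein, ranged from 281 to 338 TPM in control, 321 to 380 on day 1 and 325 to 375 on day 5. In 3 of 4 libraries on each day it was above every control. The log2 fold changes were 0.22 (standard error 0.07, adjusted p = 0.285, limma) and 0.20 (standard error 0.07, adjusted p = 0.146, limma), small and not called. *Jun*, whose product c-Jun is a main substrate of JNK, lay between 138 and 168 TPM in control, 110 and 157 on day 1 and 116 and 155 on day 5. Its log2 fold changes were -0.12 (adjusted p = 0.713) and -0.18 (adjusted p = 0.444). Within the Jun family, the mean share of *Jun* was lower on both days than in control, with 29.4% of the family TPM in control (27.2% to 30.9%), 24.4% on day 1 (20.3% to 29.4%) and 23.6% on day 5 (21% to 25.5%). *Junb* held 10.6%, 13.1% and 13.7%.

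Counted over the set, 2 of 10 members were called higher on day 1, where 0.0559% of all tested genes were. Since *Fosb* passed the filter on low values mainly through MN libraries in which it was high, this count rests on *Maff* alone as far as it is set against the other genes. On day 5, 2 of 10 members were called higher, where 2.42% of all tested genes were, with 0 called lower on either day (0.0349% and 0.789% of tested genes). In either direction, 0.0908% of tested genes were called on day 1 and 3.21% on day 5. The median log2 fold change of the members was 0.20 on both days, beside -0.003 for all tested genes. Groups did not overlap, with MN higher, for 2 members on day 1 (*Fosb* and *Maff*, against 0.908% of tested genes) and for 2 on day 5 (*Junb* and *Maff*, against 5.07%). Because of the filter, only *Maff* can be set against the share of day 1. *Mafk* on day 5 was the only member with all MN libraries below control, which 5.71% of tested genes shared. Between day 5 and day 1, limma called 0 members (1.81% of tested genes were called), with 3 at an unadjusted p under 0.05 (*Fos*, *Fosb* and *Mafk*, all lower on day 5). The highest p of these, that of *Fos* (0.02, limma), ranked 1340 of 14322 genes. Every day 5 library was below every day 1 library for *Fosb* and *Mafk*, which 4.93% of tested genes shared. Here too the filter leaves only *Mafk* to be set against this share.

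Single libraries were also set against the control range. The 4 day 1 libraries had 4, 5, 3 and 5 members above every control library, and the 4 day 5 libraries had 5, 3, 5 and 4. Among all tested genes, 10.8% to 16.5% lay above every control in a day 1 library and 15.7% to 23.6% in a day 5 library. Below every control were 3, 0, 1 and 1 members on day 1 and 2 in each day 5 library, where 16.7% to 29.3% and 17.4% to 31.6% of all tested genes were. Each control library, set against the other 4, had 2, 3, 3, 2 and 0 members above them and 0, 1, 1, 4 and 4 below them. Of all tested genes, 17.4%, 29.8%, 18.3%, 17.6% and 16.8% lay above them. Below them were 13.4%, 19.6%, 14.8%, 14.1% and 36.2%, the last in control replicate 5. *Maff* was above every control in 8 of 8 MN libraries, and *Fosb* and *Junb* each in 7. For *Fosb*, the limit set by the filter applies to these counts as well. Control replicate 5 was lowest among controls for *Fos*, *Junb*, *Maff* and *Mafk*, and control replicate 4 for *Fosl1*, *Fosl2*, *Jun* and *Jund*.

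**Figure D3:**
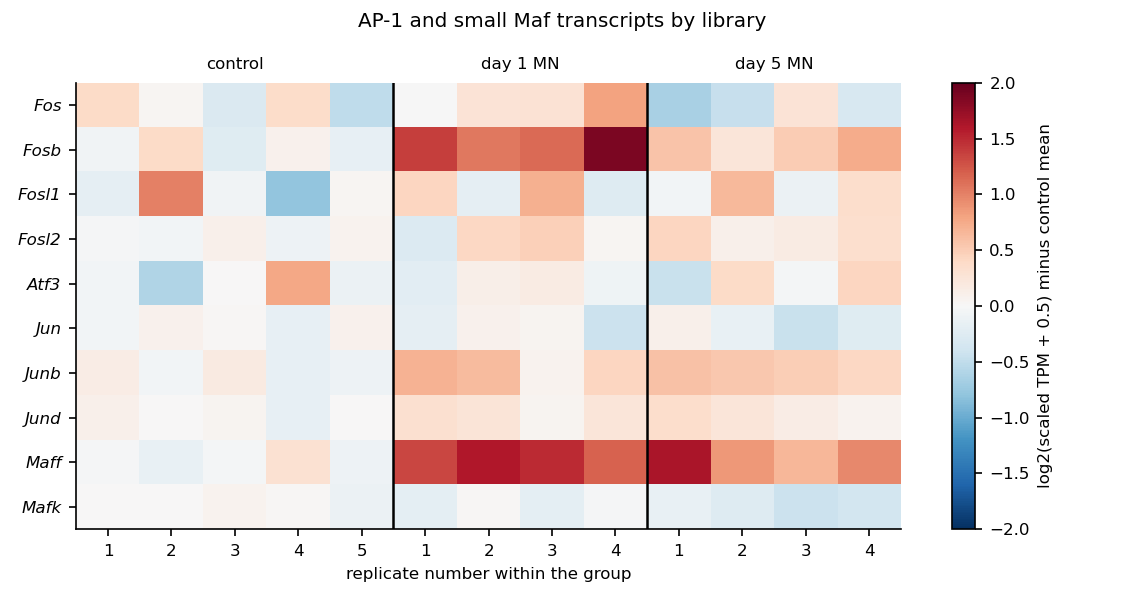
Heat map of the 10 members (rows) in 13 libraries (columns), coloured by the log2 of scaled TPM plus 0.5 relative to the mean of the control libraries. *Maff* is raised in all 8 MN libraries, *Fosb* most in the 4 day 1 libraries (1.06 to 1.89), and *Fos* varies within each group.

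Transcripts with a pattern most like those of the called members were sought over the 13 libraries, by the smallest root mean square difference of log2 values centred on the control mean. Nearest to *Maff* was *Tnfrsf12a*, the receptor of the cytokine TWEAK, at 0.28 log2 units, followed by *Fgfbp1* (0.39), a carrier of fibroblast growth factors, and *Adm* (0.39), which encodes adrenomedullin. Mean TPM of *Tnfrsf12a* was 37.9 in control, 89.8 on day 1 and 80 on day 5. Nearest to *Fosb* were *Egr1* (0.38), *Scnn1a* (0.39), a subunit of the epithelial sodium channel of the distal nephron, and *Hsbp1l1* (0.39). *Maff* and *Fosb* were also near each other, at 0.47, where *Fosb* ranked 8 of 14321 genes around *Maff*, and *Maff* ranked 11 around *Fosb*. Both were taken up because they were called higher on day 1 in these same libraries, which by itself makes their distance small. *Fosb* also passed the filter mainly through MN libraries, so these ranks show nothing beyond the calls. Nearest to *Junb* were *Lfng* (0.10), a glycosyltransferase that modifies Notch, *Slc6a6* (0.15), the taurine transporter, and *Htra4* (0.15).

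Tubular transcripts had their highest group medians on day 1. Summed TPM of 10 proximal tubule markers was 2290 to 8310 in control (median 3730), 4010 to 7260 on day 1 (median 6710) and 2960 to 3590 on day 5 (median 3250). On day 1 all 10 were higher than in control, with a median log2 fold change of 0.73 and 0 called by limma (8 at an unadjusted p under 0.05). Summed TPM of 7 markers of the loop of Henle, distal tubule and collecting duct was 256 to 518 in control, 494 to 897 on day 1 and 345 to 477 on day 5. On day 1 all 6 tested markers were higher, with 0 called by limma (3 at an unadjusted p under 0.05) and the highest log2 fold changes for *Calb1* (1.49, adjusted p = 0.0982) and *Slc12a3* (1.40, adjusted p = 0.13). No marker of either list was at 0 in every library. As groups, these lists were higher on day 1, as were *Maff* and *Fosb*. Within day 1, replicate 3 had the lowest proximal and distal sums (4010 and 494) and a *Maff* of 18.3 TPM. Replicate 2 had the highest day 1 proximal sum (7260) and the highest day 1 *Maff* (18.9 TPM). Replicate 4 had the highest distal sum (897), the lowest day 1 *Maff* (14.2 TPM) and the highest *Fosb* (3.76 TPM). A relation within groups was not tested. The proximal tubule sums of day 1 lay inside the control range only through control replicate 5. The other control libraries lay between 2290 and 3840, below every day 1 library (4010 to 7260). The day 5 sums lay inside the control range with or without that replicate. The distal sums lay above the control range in 3 of 4 day 1 libraries and inside it in 4 of 4 day 5 libraries. Control replicate 5 had the highest proximal tubule sum of all libraries, 8310, and a *Maff* of 5.59 TPM, the lowest of all. Control replicate 4 had the highest distal sum of the control libraries, 518, and the highest control *Maff*, 7.86 TPM.

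With the proximal tubule score as a covariate, the day 1 log2 fold change was 1.44 for *Maff* (adjusted p = 0.0929, limma) and 1.45 for *Fosb* (adjusted p = 0.185, limma), and 0 members were called (4 at an unadjusted p under 0.05). With a distal nephron score, an alternative chosen after seeing the data, it was 1.40 for *Maff* (adjusted p = 0.185) and 1.2 for *Fosb* (adjusted p = 0.422), again with 0 members called (5 at an unadjusted p under 0.05). The standard error of *Maff* was 0.17 without a score and 0.22 and 0.27 with the 2 scores. For *Fosb* it was 0.22, 0.29 and 0.34. With either score, 0 of all tested genes were called on day 1. As tubular transcripts were also higher on day 1, score and group cannot be told apart in these fits. On day 5, *Maff* and *Junb* were called with either covariate.

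**Figure D4:**
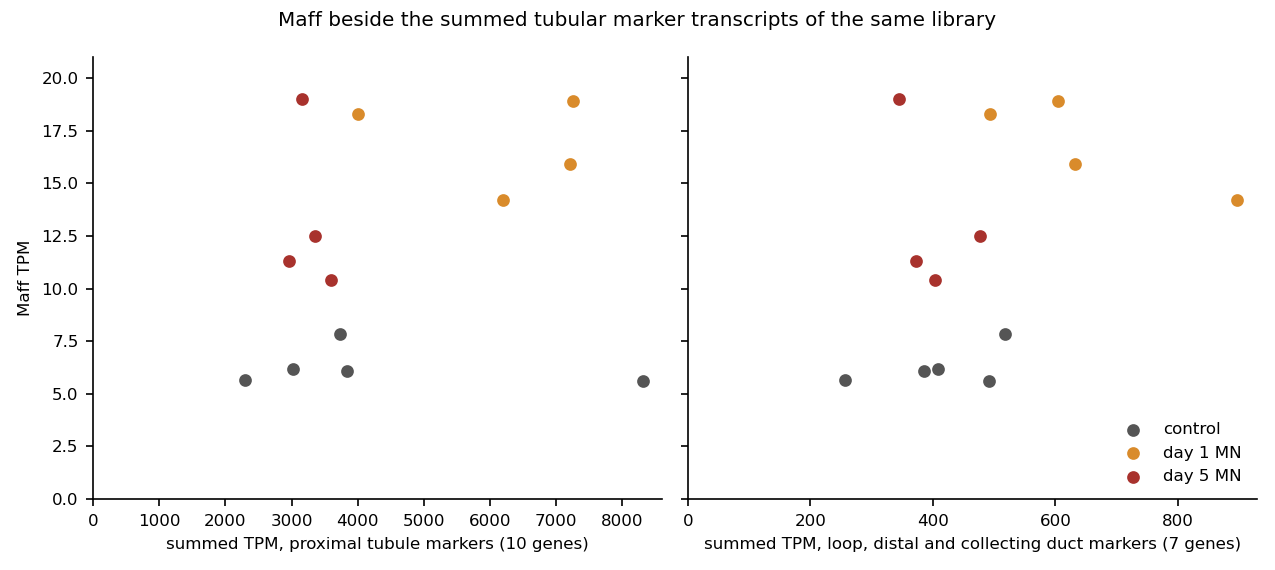
TPM of *Maff* (vertical axis) against the summed TPM of 10 proximal tubule markers (left) and of 7 markers of the loop, distal tubule and collecting duct (right), 1 point per library, coloured by group. Control libraries combine proximal tubule sums of 2290 to 8310 with *Maff* of 5.59 to 7.86. Day 1 libraries combine sums of 4010 to 7260 with *Maff* of 14.2 to 18.9, and day 5 libraries 2960 to 3590 with 10.4 to 19.0.

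The lists of the surrounding pathway are given by their counts, and 0 or 1 calls in a list of this size do not set it apart from all tested genes. An unadjusted p under 0.05 was common among all tested genes. On day 5, the p of *Fosb* (0.0366, limma) ranked 2466 of 14322 genes, and on day 1 that of *Jund* (0.0112, limma) ranked 564. A list of 26 genes that relay signals to AP-1 held MAP kinases, their upstream kinases, *Mapkapk2*, *Rps6ka1*, *Rps6ka3*, *Elk1*, *Elk3*, *Elk4* and *Srf*. Of these 26, 25 were tested and 0 were called on either day by limma (3 and 5 at an unadjusted p under 0.05). Their median log2 fold changes were 0.02 and 0.06. *Map2k7*, the JNK kinase MKK7, had a log2 fold change of -0.40 on day 5 (adjusted p = 0.00187), and *Mapk3*, which encodes ERK1, of 0.25 (adjusted p = 0.0325), both short of the fold threshold. Of 20 feedback genes such as the dual-specificity phosphatases and Sprouty genes, 19 were tested and 0 were called on either day (3 and 4 at an unadjusted p under 0.05).

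Of 17 other bZIP genes that can pair with the members, 14 were tested. On day 1, 0 were called (2 at an unadjusted p under 0.05), and on day 5 *Mafa*, a large Maf gene, was lower (limma log2 fold change of -0.69 with a standard error of 0.16, adjusted p = 0.0231). Its TPM was 5.80, 6.72, 6.44, 6.76 and 5.50 in control, 2.91, 3.42, 4.51 and 5.50 on day 1, and 4.35, 2.97, 3.85 and 3.23 on day 5, with every day 5 library below every control. Of 14 tested genes, 11 had a negative estimate on day 1 and 9 on day 5, beside 7282 and 7260 of all 14322 tested genes.

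Of 20 known AP-1 target genes, 13 were tested. On day 1, 0 were called by limma (2 at an unadjusted p under 0.05), and on day 5, 3 were called higher (2.42% of all tested genes) and 0 lower, with a median log2 fold change of 0.31. *Timp1*, an inhibitor of metalloproteinases, had TPM of 2.15, 2.29, 1.27, 1.78 and 0.936 in control and 4.52, 2.85, 5.74 and 2.28 on day 5, where replicate 4 overlapped with control (log2 fold change 0.99, limma adjusted p = 0.0475, and 0.0884 with the distal nephron score). *Cd44*, a hyaluronan receptor, had 3.61, 2.26, 3.56, 2.94 and 3.45 in control and 8.62, 4.51, 5.40 and 6.21 on day 5, with no overlap (log2 fold change 0.88, adjusted p = 0.0135). *Hmga1*, a chromatin architectural protein, had 13.8, 12.5, 12.8, 14 and 11.5 in control and 21.1, 22.5, 16.7 and 17.4 on day 5 (log2 fold change 0.60, adjusted p = 0.00575). On day 1 their log2 fold changes were not called, as with the whole list. Of 17 targets of small Maf and NRF2 dimers, 16 were tested and 0 were called on either day (7 on day 1 and 1 on day 5 at an unadjusted p under 0.05). Their median log2 fold changes were 0.17 and 0.09. On day 1, 15 of 16 estimates were above 0, beside 7040 of all 14322 tested genes. The genes of a list were read in the same libraries, so that their directions are not independent.

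Of 15 other immediate-early genes, 13 were tested, 1 was called higher on day 1 (0.0559% of all tested genes) and 2 on day 5 (2.42%). *Egr1*, a zinc finger factor, was called on both days. Its TPM was 12.9, 9.72, 13.2, 10.2 and 9.38 in control, 20.1, 17.4, 19.8 and 27.6 on day 1, and 19.0, 17.0, 18.2 and 14.4 on day 5, with every MN library above every control. The log2 fold change was 0.94 on day 1 (adjusted p = 0.0271, limma) and 0.65 on day 5 (adjusted p = 0.0162, limma). As for the members, the day 1 call was lost with the proximal tubule score (0.97, adjusted p = 0.17, limma) and with the distal nephron score (0.89, adjusted p = 0.365, limma), and the day 5 call was not. *Egr3*, which the study also placed among its genes altered on both days, was called here on day 5 (log2 fold change 1.28, adjusted p = 0.0251, limma). Its mean TPM was 0.487 in control, 1.16 on day 1 and 1.98 on day 5, so that it passed the filter of 1 TPM through MN libraries. As for *Fosb*, this limits the count, which on day 5 rests on *Egr1* alone as far as it is set against the other genes. The median over the 13 genes was 0.30 on day 1 and 0.26 on day 5, beside 0.20 on both days for the 10 AP-1 and small Maf genes.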

How the data were processed

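The authors trimmed paired-end reads with Trimmomatic 0.39 after FastQC 0.11.9, assigned them to GRCm39 transcripts with kallisto 0.46.2 and deposited TPM values, 1 per gene symbol and library, for 35967 symbols in 13 libraries. TPM are rescaled within a library, so the depth of each library is unknown and no counting error can be attached. Counts, which the authors tested with DESeq2, were not used here. Groups and replicate numbers came from the sample labels, and separate numbers are separate mice.

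Scaling used median-of-ratios factors from the 15772 genes that no library lists at 0, and the log2 of scaled TPM plus 0.5 was analysed. The 14322 genes reaching 1 TPM in 4 or more libraries entered 1 limma 3.58.1 fit of all 3 groups in R 4.3.3 (eBayes, trend on). Benjamini-Hochberg adjustment was made per contrast, and a call needed an adjusted p under 0.05 together with a log2 fold change beyond 0.5 in either direction. The procedure was tested on simulated data. The members and lists were chosen with earlier results of these data known. Named genes are the 10 members, the called genes of the related lists (at most 4 per contrast and direction), the 3 genes nearest in pattern to each called member, and cell type markers. *Mafg*, *Prdx2*, *Map2k7*, *Mapk3* and *Tmem184a*, and the genes of the closing observations, were named after their values were seen. Loci come from the GENCODE annotation of GRCm39, copies were sought with BLAST+ 2.17.0, and figures were made in Python 3.11.15 (matplotlib 3.10.9). Alternatives covered pseudocounts, scaling, filters, the trend, the groups in the fit, a replicate block, array weights, tubular covariates and leaving out each library.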

Additional observations from a re-analysis of the deposited data

Results flagged for a closer look

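In 30 groups of member values, 2 libraries stood far from the others of their group by Dixon's 95% criterion, which chance exceeds in about 1 group in 20. *Maff* was highest in control replicate 4, at 7.86 TPM, while the other control libraries lay between 5.59 and 6.17. Without this library its log2 fold change was 1.48 on day 1 and 1.11 on day 5, and it was called on both days. *Mafk* was lowest in control replicate 5, at 55.5 TPM, while the other control libraries lay between 62.9 and 65.7. Without this library its log2 fold change was -0.12 on day 1 and -0.33 on day 5.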

How the results depend on the processing

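On day 1, 2 members were called in the reported fit. The number was 1 without a filter on low TPM, 1 where all libraries had to reach 1 TPM (which leaves *Fosb* untested) and 1 where the third group was kept out of the fit. It was 0 with the proximal tubule score and 0 with the distal nephron score, the latter chosen after seeing the data. It lay between 1 and 3 when 1 library was left out. On day 5, 2 members were called, and the number was 1 for TPM without further scaling, 1 with array weights and between 1 and 2 when 1 library was left out, each time with *Maff* called. Between the days 0 members were called, and eBayes without the trend called 1, *Fosb* (adjusted p = 0.037, limma). Over all tested genes, 13 were called on day 1. The number was 218 without control replicate 5, 3 to 18 without any other single library, 0 with either tubular score, 2 without the third group, 6 without a filter and 7 without the trend. Between the days 259 were called, and the number was 34 with the distal nephron score, 161 with the proximal tubule score, 153 where all libraries had to reach 1 TPM, 423 without the third group and 150 to 437 with 1 library left out. The causes were not tested.

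Replicate numbers label different mice. The correlations of deviations between same-numbered libraries lay between -0.0563 and 0.0913, and 2 of 8 libraries on day 1, 3 of 8 on day 5 and 0 of 8 between the days correlated best with their own number. With the replicate number as a block, 2 members were called on day 1 and 1 on day 5, where *Junb* had a log2 fold change of 0.48 (adjusted p = 0.0524), and 149 genes in all were called on day 1.

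Estimates near 0 changed sign under some settings. On day 1 that of *Atf3* was 0.01 with a pseudocount of 0.1 and -0.15 to 0.19 with 1 library left out, that of *Fosl1* -0.02 to 0.43 with 1 library left out, and that of *Jun* 0.15 with the distal nephron score. On day 5 that of *Fosl1* was -0.05 with the distal nephron score, and that of *Atf3* lay between -0.07 and 0.28 with 1 library left out. Between the days, *Fosl1* was 0 after quantile normalization, -0.29 with the proximal tubule score and -1.12 with the distal nephron score, and *Fosl2* was -0.11 with the latter. With 1 library left out, the difference between the days ranged from -0.12 to 0.21 for *Fosl1*, -0.05 to 0.20 for *Fosl2*, -0.17 to 0.03 for *Jun*, -0.07 to 0.13 for *Junb*, -0.08 to 0.03 for *Jund* and -0.03 to 0.26 for *Atf3*. Unknown depth limits low genes such as *Fosl1* and *Fosb* most.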

Other observations

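Among the partners of the members, *Maf* had log2 fold changes of -0.10 on day 1 and 0.09 on day 5, and *Nfe2l2*, which encodes the small Maf partner NRF2, had -0.14 and -0.09. None of these 4 differences was called by limma.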
